A study of Mus musculus with 4 samples.

Results

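The ribosomal protein genes of the mouse were followed in 4 RNA sequencing libraries of sorted striatal medium spiny neurons. They were taken by gene symbol: protein-coding genes named Rpl or Rps with a number and at most 1 further letter (a, x or l), together with Rplp0, Rplp1, Rplp2 and Rpsa. Of 79 such genes, 77 reached at least 1 CPM in 2 or more libraries, among 13396 genes that did so and 37620 gene identifiers in all. CPM is a gene's count scaled to the size of its library. They comprised 46 genes of the large subunit and 31 of the small subunit. The 2 genes left out were Rpl10l, with 0 counts in every library, and Rpl39l, with 1 count in D2 BACHD, 1 in D2 WT, 1 in D1 BACHD and 0 in D1 WT. The lowest gene inside the limit was Rpl3l, with 1.05 CPM in D2 BACHD, 0.805 in D2 WT, 1.94 in D1 BACHD and 1.97 in D1 WT.

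BACHD is a mouse model of Huntington's disease in which full-length human mutant huntingtin with 97 glutamines is expressed from a transgenic BAC (bacterial artificial chromosome) by the huntingtin gene's own regulatory elements. WT mice were littermates without that transgene. All were males on the FVB/NJ background, 5 to 6 months old, and all carried an EGFP reporter BAC that was either Drd2-EGFP, which marks dopamine D2 receptor neurons of the indirect pathway, or Drd1-EGFP, which marks dopamine D1 receptor neurons of the direct pathway. The 4 groups (D2 BACHD, D2 WT, D1 BACHD and D1 WT) had 1 library each, made from GFP-sorted cells of 4 pooled animals with 150000 cells per animal. No value therefore has a replicate within its group, and D2 and D1 cells also differ in reporter line. In such bulk libraries, fewer cells of a type and less RNA per cell cannot be told apart.

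The cytosolic ribosome is built from rRNA and the proteins of these genes, which it holds in nearly equal numbers. Their mRNAs begin with a C and a run of pyrimidines, the 5′ terminal oligopyrimidine (TOP) tract, through which the mTOR pathway sets their translation together. Neurons need ribosomes in the cell body and in dendrites, and mammalian genomes also hold many processed pseudogenes, reverse-transcribed copies of these abundant mRNAs whose sequence can be almost the same as the parent's.

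Such likeness bears on how short reads are assigned, and the coding starts of the genes on which the cell type comparison turns are shown with those of their most counted copies. They are read from GENCODE M21 transcripts, and a capital marks a base that differs between gene and copy.
Rps2: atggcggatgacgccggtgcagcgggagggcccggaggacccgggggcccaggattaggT
Rps2-ps13: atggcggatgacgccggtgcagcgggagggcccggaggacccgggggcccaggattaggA
Rpl3: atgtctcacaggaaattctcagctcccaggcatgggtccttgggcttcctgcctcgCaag
Rpl3-ps1: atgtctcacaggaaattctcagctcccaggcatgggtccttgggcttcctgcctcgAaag
Rpl21: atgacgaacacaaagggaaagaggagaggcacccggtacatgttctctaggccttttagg
Gm10163: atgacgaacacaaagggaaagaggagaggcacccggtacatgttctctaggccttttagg
The Rps2 and Rps2-ps13 stretches of 60 coding bases differ at 1 base, as do those of Rpl3 and Rpl3-ps1, and the stretches of Rpl21 and Gm10163 are identical. Over the whole alignment Rps2 and Rps2-ps13 differed at 7 of 882 bases, Rpl3 and Rpl3-ps1 at 2 of 1210 bases, and Rpl21 and Gm10163 at 2 of 481 bases. Rpl7a and Rpl7a-ps11 differed at 2 of 801 bases, and Rpl10 and Rpl10-ps3 at 0 of 740 bases. Sequencing reads were 50 bases long, in pairs.

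The libraries held 41325647 to 44523622 estimated counts, and mitochondrially encoded genes took 9.34% of counts in D2 BACHD, 8.37% in D2 WT, 8.03% in D1 BACHD and 5.87% in D1 WT. The sorts separated the pathways: the 5 D2 markers summed to 12350 and 13090 CPM in D2 BACHD and D2 WT, and to 161 and 176 CPM in D1 BACHD and D1 WT. Mouse Htt stood at 148.6, 159.4, 158.9 and 158.8 CPM in D2 BACHD, D2 WT, D1 BACHD and D1 WT, and since the transgene is human these counts do not check the genotype.

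As a group, the ribosomal protein genes were among the more abundant mRNAs of these neurons, and their share of the library was nearly equal in all 4. They took 0.687% of counts in D2 BACHD, 0.670% in D2 WT, 0.707% in D1 BACHD and 0.683% in D1 WT. Their summed FPKM (the deposited values scaled by gene length and library size) was 9591 in D2 BACHD, 9328 in D2 WT, 9890 in D1 BACHD and 9552 in D1 WT. The median gene had a mean of 122.7 FPKM, against 11.0 FPKM for the median of all genes tested, which is the 96.0th percentile of those genes. In all, 50 genes averaged over 100 FPKM, 16 lay between 50 and 100 FPKM and 11 under 50 FPKM.

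**Figure D1:**
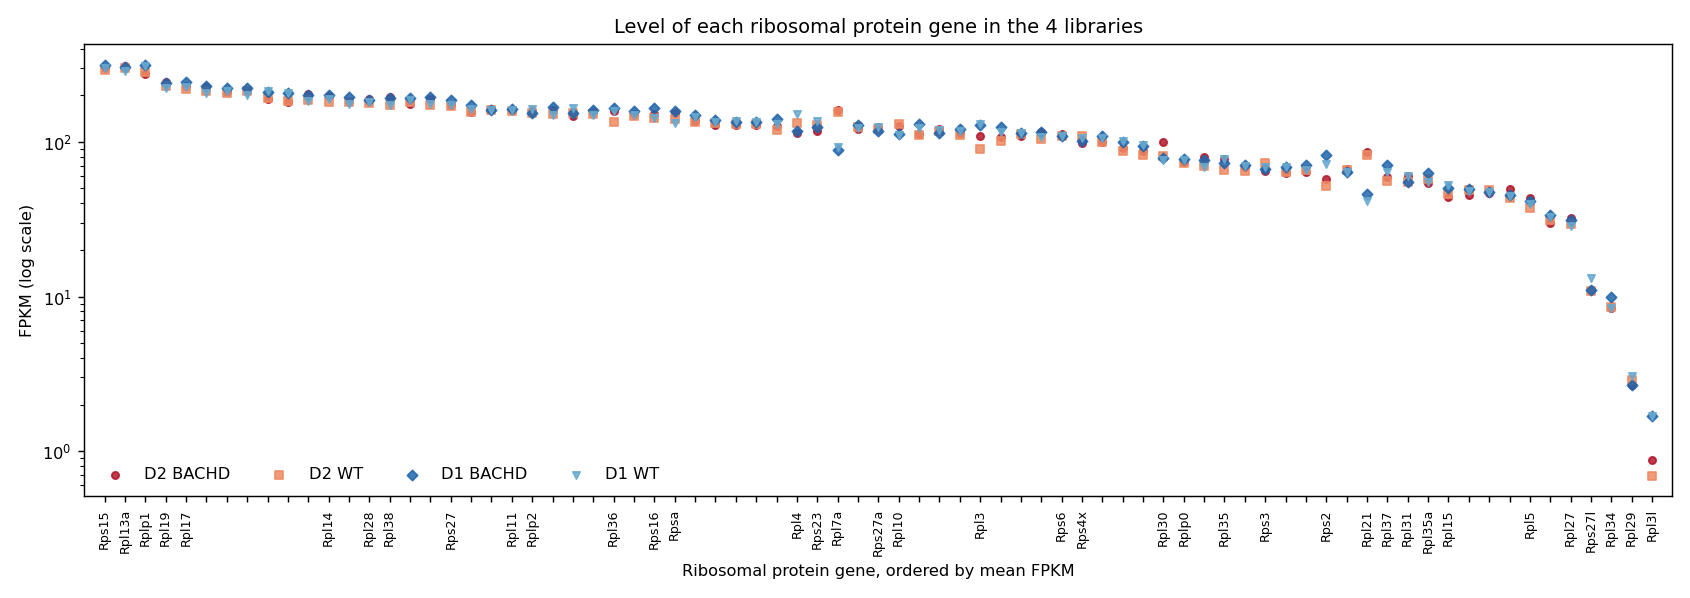
FPKM of each of the 77 ribosomal protein genes (horizontal axis, ordered by mean, with some genes named) on a log axis, with 1 point for each library. Most genes lie close together near the median of 122.7 FPKM, the points of Rpl7a and Rpl21 split between D2 and D1 libraries, and Rps27l, Rpl34, Rpl29 and Rpl3l lie far below the rest.

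Although ribosomes hold these proteins in near-equal numbers, their deposited mRNA levels differed 4.39-fold between the 10th and 90th percentiles and 245-fold between the highest and lowest gene. Rps15, a small subunit protein at the decoding centre, was the highest, with 302.7 FPKM in D2 BACHD, 293.5 in D2 WT, 312.5 in D1 BACHD and 299.3 in D1 WT. Rpl13a (mean 300.9 FPKM), the stalk protein gene Rplp1 (295.8 FPKM), Rpl19 (234.5 FPKM) and Rpl17 (230.9 FPKM) followed. These first 3 neighbours did not differ beyond the range of their 4 libraries, and a gap separated them from Rpl19.

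The lowest was Rpl3l, the paralog of Rpl3 known from skeletal muscle and heart, with 0.878 FPKM in D2 BACHD, 0.692 in D2 WT, 1.69 in D1 BACHD and 1.68 in D1 WT. Rpl29 followed with 2.67 FPKM in D2 BACHD, 2.88 in D2 WT, 2.69 in D1 BACHD and 3.05 in D1 WT. Rpl34 (mean 8.83 FPKM), Rps27l (11.5 FPKM), a paralog of Rps27, and Rpl27 (30.4 FPKM) completed the 5 lowest. The parents Rpl3 and Rps27 averaged 114.8 and 176.0 FPKM, so both paralogs stood well below them. No range of Rpl3l or Rpl29 over libraries reached that of any other ribosomal protein gene.

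For Rpl29, Rpl34 and Rpl27 most counts of the gene and its copies together stood under other identifiers. A search of GENCODE M21 transcripts at 90% identity or more over at least 100 bases and at least 50% of the copy found 632 copies of 71 genes, and 440 of the copies had a count. A near-identical copy means here any match of that search, which need not be the same sequence throughout. The copies of Rpl29 held 98.5% of the sum of gene and copies, those of Rpl34 91.7% and those of Rpl27 80.2%. Summed with its 41 copies, Rpl29 stood at 136.1 CPM in D2 BACHD, 131.6 in D2 WT, 136.7 in D1 BACHD and 127.4 in D1 WT, while the gene alone lay between 1.92 and 2.16 CPM. Copies held over 50% of the sum for 11 genes and over 10% for 27 genes, while 6 genes, among them Rpl4 and Rpl3l, had no copy by this search. How the authors' counting divided reads between a gene and its copies is not given in the sources used here, and 88.0% of the entries of these 77 genes were not whole numbers. A low FPKM of a gene with many counts in its copies is therefore of uncertain assignment.

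The stalk genes, Rps6 and Rps27a stood near the group's median, apart from Rplp1 above it and Rplp0 below it. Rplp0, the base of the stalk that recruits elongation factors, stood at 74.5 FPKM in D2 BACHD, 73.0 in D2 WT, 76.99 in D1 BACHD and 75.85 in D1 WT. Rplp1 and Rplp2, which form its dimers, averaged 295.8 and 157.3 FPKM. Rps6, the small subunit protein phosphorylated by S6 kinases, stood at 113.0 FPKM in D2 BACHD, 109.5 in D2 WT, 109.1 in D1 BACHD and 109.4 in D1 WT. Rps27a, which is made as a fusion with ubiquitin, averaged 122.7 FPKM.

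The study compared BACHD with WT neurons of each pathway, and the genotype term asked which genes differed the same way in both. No ribosomal protein gene was called: 0 of 77 had an edgeR adjusted p under 0.05, where 0.485% of all genes tested were called. Before adjustment, 12 genes had p under 0.05, 10 of them higher and 2 lower in BACHD. That was 15.6% of the 77 genes, close to the 13.5% of all genes tested. DESeq2's Wald test called 1 gene, Rpl4.

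The direction was mostly upward and the size small. The median fitted BACHD minus WT difference was 0.04 on the log2 scale, with 52 genes above 0 and 25 below, against a median of 0.01 over all genes tested. Of all 13396 genes tested, 7065 lay above 0 and 6331 below. Among tested genes within the 5th to 95th percentile of the 77 genes' mean CPM the median was -0.0004. Among the 4388 within the 77 genes' range of gene length it was 0.02, with 2529 above 0 and 1859 below. In D2 cells the median log2 ratio of BACHD over WT was 0.03, against 0.01 for all genes tested and 0.04 for genes of like length. In D1 cells it was 0.05, against 0.0018 for all genes tested and 0.0046 for genes of like length. In 39 genes (50.65%) BACHD was above WT in both cell types, which held for 31.8% of all genes tested. In 51 genes (66.2%) BACHD lay within 10% of WT in both cell types, against 45.6% of all genes.

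Markers of some other cells also differed with genotype, and not all in the same direction. The 7 oligodendrocyte genes tested were each higher in BACHD than in WT in both cell types. They summed to 402 CPM in D2 BACHD against 337 in D2 WT, and to 364 CPM in D1 BACHD against 313 in D1 WT. None of the 9 listed was at 0. The 6 cortical glutamatergic markers summed to 5.25 CPM in D2 BACHD against 3.04 in D2 WT, and to 136.7 CPM in D1 BACHD against 27.6 in D1 WT. The 7 astrocyte markers summed to 198.8 CPM in D2 BACHD against 200.3 in D2 WT, and to 200.9 CPM in D1 BACHD against 146.8 in D1 WT, with none at 0. The 7 markers shared by medium spiny neurons summed to 11250 CPM in D2 BACHD against 12580 in D2 WT, and to 10170 CPM in D1 BACHD against 11150 in D1 WT. The tested markers of microglia (7 of 8 listed), oligodendrocyte precursors (2 of 4) and interneurons (2 of 6) each summed higher in BACHD in both cell types. Of the 7 microglia genes, 5 were higher and 2 lower in BACHD in each cell type. C1qc was lower in both, Cx3cr1 in D2 cells and C1qb in D1 cells. The 1 endothelial gene tested, Flt1, was lower in BACHD. It had 1.54 CPM in D2 BACHD against 2.3 in D2 WT, and 0.877 CPM in D1 BACHD against 0.912 in D1 WT. The part of these markers, and of the mitochondrial share, in the ribosomal protein values was not tested.

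**Figure D2:**
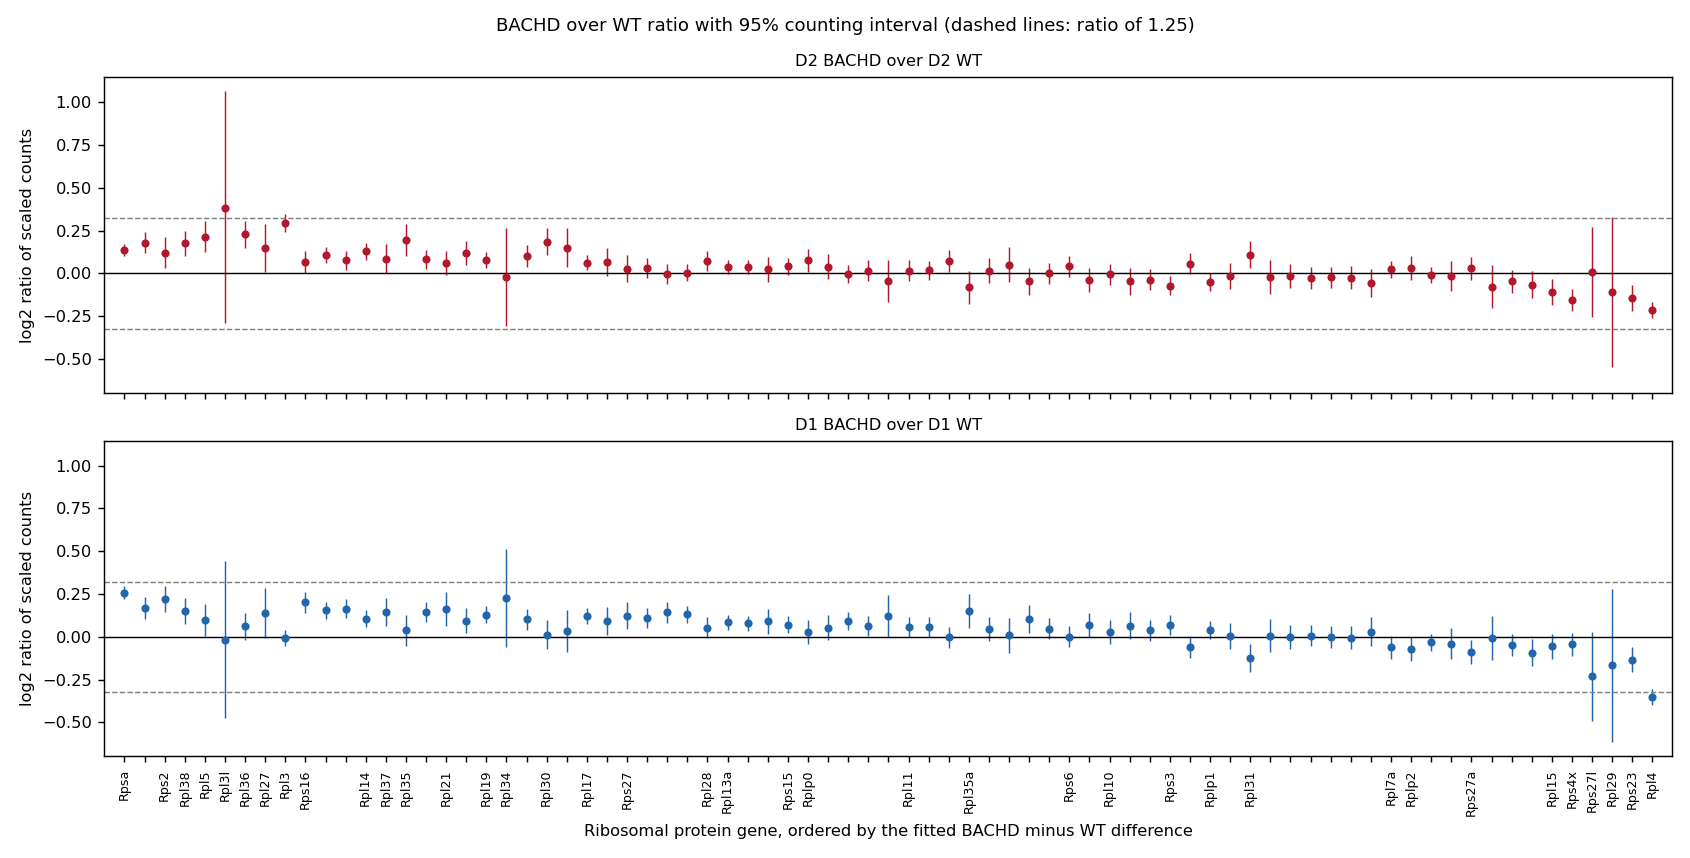
Log2 ratio of TMM-scaled counts, BACHD over WT, for the 77 ribosomal protein genes in D2 cells (upper panel) and D1 cells (lower panel), with some genes named, bars for the 95% counting interval and dashed lines at the limits of the size rule, a log2 ratio of 0.32 either way. The points outside the dashed lines are Rpl3l in D2 cells, whose interval includes 0, and Rpl4 in D1 cells. Rpl4 at the right end is the lowest in both panels, at -0.22 in D2 and -0.35 in D1 cells.

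Rpl4, a large subunit protein that lines the exit tunnel of the nascent chain, had the largest genotype difference in size. It stood at 166.7 CPM in D2 BACHD against 193.6 in D2 WT, and at 163.6 CPM in D1 BACHD against 208.9 in D1 WT. Both BACHD libraries were below both WT libraries. The fitted difference was -0.28 ± 0.05 (log2, SE; edgeR adjusted p = 0.0791), so it missed the threshold. Total-count scaling gave an adjusted p of 0.0467 and DESeq2's Wald test one of 0.0487, and over all alternatives it ran between 0.000755 (no filter on low counts, edgeR) and 0.9998 (edgeR with the genotype term alone). Rpl4 lies on chromosome 9 at 64173375 to 64178666 on the plus strand (GRCm38, GENCODE M21), holds 5 annotated snoRNA genes inside it and had no near-identical copy.

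Within a cell type, where each group is 1 library, a gene passed by size at a log2 ratio of at least 0.32 either way with a 95% counting interval that excluded 0. In D1 cells only Rpl4 of the 77 genes passed, at a log2 ratio of -0.35 (interval -0.40 to -0.31), where 9.78% of all genes tested passed. In D2 cells 0 of 77 passed, where 7.35% of all genes did, and Rpl4 had a log2 ratio of -0.22 (interval -0.26 to -0.17). A smaller share passed among the 7229 tested genes within the 5th to 95th percentile of the 77 genes' mean CPM. Of those, 134 passed as higher and 101 as lower in D1 cells, and 57 as higher and 110 as lower in D2 cells. The counting intervals cover counting error only.

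The highest fitted genotype difference belonged to Rpsa, a small subunit protein also known as the laminin receptor. It had 293.1 CPM in D2 BACHD against 266.8 in D2 WT, and 289.7 CPM in D1 BACHD against 242.2 in D1 WT. Both BACHD libraries were above both WT libraries, with a fitted difference of 0.20 ± 0.05 (edgeR adjusted p = 0.182). With no filter on low counts edgeR gave an adjusted p of 0.0407. Rpl4, Rpsa and the further genes whose BACHD and WT libraries did not overlap were picked by genotype difference or unadjusted p. Such a choice favours genes that separate this way, and their share over all genes tested was not counted.

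Rpl38 and Rps2 were also higher in BACHD and did not pass the test either. Rpl38, which in mice affects translation of Hox mRNAs, had 74.0 CPM in D2 BACHD against 65.5 in D2 WT, and 69.7 CPM in D1 BACHD against 62.8 in D1 WT (difference 0.16 ± 0.05, edgeR adjusted p = 0.245). Both BACHD values lay above both WT values. Rps2, given in full with the cell type comparison, was fitted at 0.17 ± 0.06 (edgeR adjusted p = 0.255), with log2 ratios of BACHD over WT of 0.12 in D2 cells and 0.22 in D1 cells. Copies held 80.1% of the sum of Rps2 and its copies, and that sum was also higher in BACHD in both cell types.

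Rps23, a decoding centre protein, was second lowest, with 65.6 CPM in D2 BACHD against 72.4 in D2 WT, and 66.7 CPM in D1 BACHD against 73.1 in D1 WT. Its fitted difference was -0.14 ± 0.05 (edgeR adjusted p = 0.317), and its BACHD and WT values did not overlap. Summed with its copies it was fitted at -0.06 ± 0.05 (edgeR adjusted p = 0.681). Rpl5, which joins Rpl11 and a small rRNA in the complex that binds Mdm2, was fitted at 0.16 ± 0.06 (edgeR adjusted p = 0.335), but at -0.03 when summed with its copies. Rpl11 was fitted at 0.04 ± 0.05 (edgeR adjusted p = 0.787).

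Rps16, Rpl36 and Rpl14 were among the genes that had an unadjusted p under 0.05 and were not called. Rpl14 had 159.2 CPM in D2 BACHD against 145.6 in D2 WT, and 156.0 CPM in D1 BACHD against 144.9 in D1 WT. Rps16 had 98.4 CPM in D2 BACHD against 93.9 in D2 WT, and 102.8 CPM in D1 BACHD against 89.5 in D1 WT. In both genes the BACHD libraries lay above the WT libraries. Rps16 and Rpl36 were fitted at 0.13 and 0.14, and with copies summed at 0.12 and 0.16.

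Other genes at either end of a cell type's list differed less evenly. In D1 cells Rpl34, Rps16 and Rps2 had log2 ratios of 0.23, 0.20 and 0.22, and Rps27l, Rpl29 and Rpl31 had -0.23, -0.17 and -0.12. With copies summed, Rpl29 turned to 0.10 (interval 0.05 to 0.16) and Rpl31 was -0.04 (interval -0.08 to 0.01) in D1 cells. In D2 cells Rpl3l, Rpl3, Rpl36, Rpl5 and Rpl35 had log2 ratios of 0.38, 0.30, 0.23, 0.21 and 0.20, while Rps4x, Rpl29 and Rpl15 had -0.16, -0.11 and -0.11. With copies summed, Rpl3 and Rpl5 turned to -0.07 and -0.02 in D2 cells, and Rpl29 and Rpl15 to 0.05 and 0.02. The intervals of Rpl3l, Rpl29, Rpl34 and Rps27l, the genes of lowest count, included 0 in both cell types. Across the 77 genes the D2 ratio and the D1 ratio, which share no library, had Pearson's r of 0.377 and Spearman's rho of 0.378, and over all 13396 genes r was 0.253 and rho 0.279. These describe genes within 4 libraries, and genes are not replicates.

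The large and small subunits both had small median genotype differences. The fitted median was 0.05 for the 46 large subunit genes, with 35 above 0 and 11 below. It was 0.015 for the 31 small subunit genes, with 17 above 0 and 14 below. The difference between subunits was not tested. The 29 genes with a snoRNA gene inside them on the same strand had a median of 0.04, as had the 48 without one.

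Genes around the ribosome were placed beside it. Translation initiation factors had a median genotype difference of -0.07, with 10 of 38 above 0, 28 below and 0 called. They include the helicase Eif4a2 (-0.07 ± 0.05, edgeR adjusted p = 0.586) and Eif4g2 (-0.14, edgeR adjusted p = 0.254). Elongation and termination factors had a median of -0.06, with 0 of 13 called and Eef1a1, which brings aminoacyl-tRNA to the ribosome, at -0.09 ± 0.05 (edgeR adjusted p = 0.490). Ribosome biogenesis factors had a median of -0.05, with 31 of 43 below 0 and 0 called, among them nucleolin (Ncl) at -0.14 and nucleophosmin (Npm1) at -0.02.

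Of 17 other mRNAs with a TOP tract, 1 was called. Hnrnpa1, an RNA-binding splicing regulator, fell to 33.9 CPM in D2 BACHD, against 43.8 in D2 WT, and to 33.0 CPM in D1 BACHD, against 43.7 in D1 WT (-0.39 ± 0.06, edgeR adjusted p = 0.0474). This call needs the cell type term: with the genotype term alone, edgeR called 0 of all 13396 genes by genotype with all 4 libraries. Copies were searched only for the 77 ribosomal protein genes, so Hnrnpa1 and the other genes of the related lists were not summed with copies. The median of the 17 TOP mRNAs was -0.02. RNA polymerase I genes (0 of 13 called, median 0.03), regulators of TOP translation such as Tsc1 and Tsc2 (0 of 18 called, median 0.01) and transcription factors of ribosomal protein genes (0 of 11 called, median -0.02) gave no further genotype call. Of the 7 ribosomal protein genes that the symbol rule does not take (such as Fau, Rack1 and Rps3a1), 0 were called and the median was -0.01, with Rpl7l1 highest at 0.07 and Rack1 at 0.03. The lowest of them was Rps3a1, with 101.2 CPM in D2 BACHD against 109.9 in D2 WT, and 101.3 CPM in D1 BACHD against 109.6 in D1 WT (-0.12 ± 0.05, edgeR adjusted p = 0.355).

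**Figure D3:**
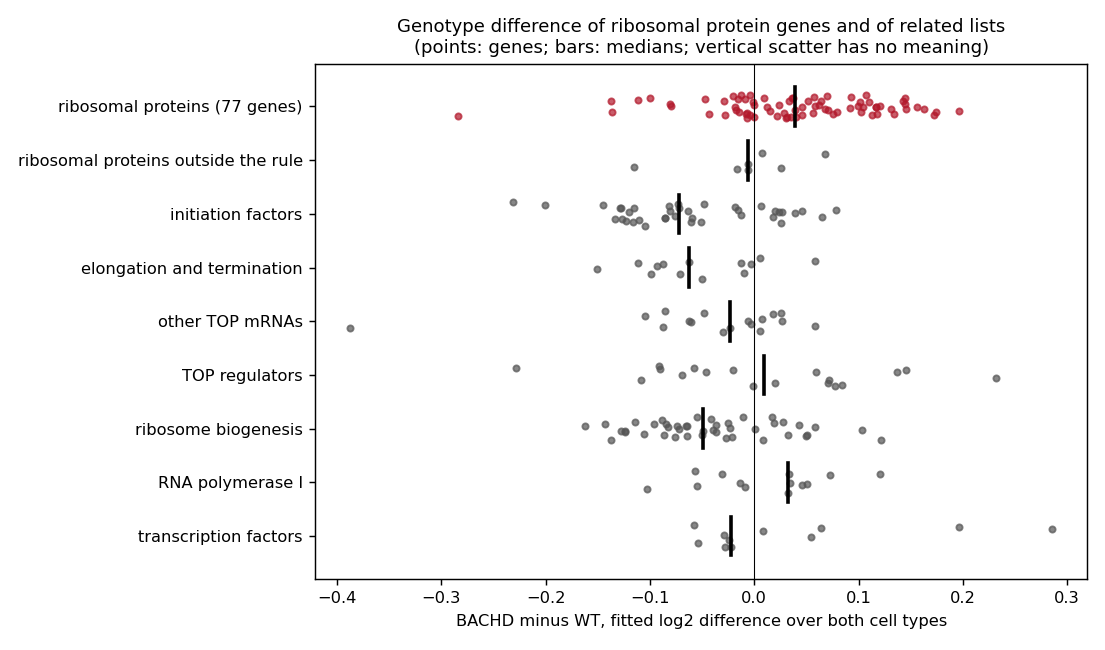
Fitted BACHD minus WT log2 difference over both cell types for each ribosomal protein gene and each gene of 8 related lists (points), with the median of each list as a bar. The ribosomal protein bar stands at 0.04, those of initiation factors, elongation and termination factors and biogenesis factors at -0.07, -0.06 and -0.05, and the outlying low point among TOP mRNAs is Hnrnpa1 at -0.39.

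D2 and D1 neurons were compared over both genotypes in the same fit. Of the 77 ribosomal protein genes 6 were called, 3 higher and 3 lower in D2 cells, where 17.0% of all genes tested were called. The median D2 minus D1 difference was 0.02, against -0.0012 for all genes tested. Under total-count scaling it was -0.05, against -0.07 for all genes tested. That scaling called 12 of the 77 genes, 3 higher and 9 lower in D2 cells, and 2875 of all 13396 genes tested. Rpl21, Rpl7a and Rpl10 were higher in D2 cells, and Rpl3l, Rps2 and Rpl3 were lower. For Rpl21, Rps2, Rpl3 and Rpl10, counts of near-identical copies differed the other way within each genotype, and the call was lost when gene and copies were summed.

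Rpl21, a large subunit gene on chromosome 5 (146832890 to 146837032, plus strand), had 78.4 CPM in D2 BACHD and 75.1 in D2 WT, against 40.95 CPM in D1 BACHD and 36.6 in D1 WT. Both D2 libraries were far above both D1 libraries, a fitted difference of 0.99 ± 0.06 (log2; edgeR adjusted p = 1.5e-05). Its 48 copies together had 33.8 CPM in D2 BACHD and 35.1 in D2 WT, against 74.3 CPM in D1 BACHD and 68.9 in D1 WT. Nearly all of that stood under Gm10163, a processed pseudogene on chromosome 9 (88390837 to 88391317). Gene and copies summed to 112.2 CPM in D2 BACHD and 110.2 in D2 WT, against 115.2 CPM in D1 BACHD and 105.5 in D1 WT, and the difference was 0.01 ± 0.05 (edgeR adjusted p = 0.907).

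Rpl7a, on chromosome 2 (26910764 to 26913318, plus strand), had 148.9 CPM in D2 BACHD and 146.5 in D2 WT, against 79.1 CPM in D1 BACHD and 82.55 in D1 WT. The D2 and D1 libraries did not overlap (0.87 ± 0.05, edgeR adjusted p = 1.5e-05). Its copies held 1.68 CPM in D2 BACHD and 2.25 in D2 WT, against 27.8 CPM in D1 BACHD and 24.6 in D1 WT, in D1 cells chiefly under Rpl7a-ps11 on chromosome X. Summed with them, Rpl7a was still higher in D2 cells, at 150.6 CPM in D2 BACHD and 148.8 in D2 WT, against 106.9 CPM in D1 BACHD and 107.2 in D1 WT (0.48 ± 0.05, edgeR adjusted p = 0.000288). Identifiers without a GENCODE M21 name were not searched for copies.

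Rps2, a small subunit protein near the mRNA entry channel, had 50.0 CPM in D2 BACHD and 46.0 in D2 WT, against 72.9 CPM in D1 BACHD and 62.6 in D1 WT. Both D2 libraries were below both D1 libraries (-0.49 ± 0.06, edgeR adjusted p = 0.000618). Its 38 copies held far more than the gene, 252.8 CPM in D2 BACHD and 237.4 in D2 WT, against 247.0 CPM in D1 BACHD and 197.0 in D1 WT. The sum was 302.9 CPM in D2 BACHD and 283.4 in D2 WT, against 320.0 CPM in D1 BACHD and 259.6 in D1 WT, with a difference of 0.02 ± 0.06 (edgeR adjusted p = 0.848). Without the D2 WT library the gene alone was fitted at -0.44 with an adjusted p of 0.0777. Rps2 also overlaps Snhg9 on the other strand, and whether counting used the strand is not given in the sources used here.

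Rpl3, which reaches the peptidyl transferase centre, had 153.1 CPM in D2 BACHD and 124.8 in D2 WT, against 172.1 CPM in D1 BACHD and 173.1 in D1 WT. D2 WT stood lowest (-0.32 ± 0.07, edgeR adjusted p = 0.0236). Its copies ran the other way, with 79.9 CPM in D2 BACHD and 120.1 in D2 WT, against 57.6 CPM in D1 BACHD and 61.6 in D1 WT. Summed, Rpl3 lay between 229.7 and 245.0 CPM in all 4 libraries (0.04 ± 0.05, edgeR adjusted p = 0.635). The Rpl3 ratio of BACHD over WT in D2 cells, 0.30 for the gene alone, was -0.07 for the sum. With the cell type term alone and all 4 libraries Rpl3 had an edgeR adjusted p of 0.0848. In that kind of fit its call was also absent without D1 WT (adjusted p = 0.188), without D1 BACHD (0.180) and without D2 WT (0.349).

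Rpl10, an X-linked gene of the large subunit needed for subunit joining, had 95.6 CPM in D2 BACHD and 96.0 in D2 WT, against 79.8 CPM in D1 BACHD and 78.1 in D1 WT (0.28 ± 0.05, edgeR adjusted p = 0.00659). Its copies, chiefly Rpl10-ps3, had 63.5 CPM in D2 BACHD and 75.5 in D2 WT, against 76.7 CPM in D1 BACHD and 79.0 in D1 WT. The sum differed by 0.07 ± 0.05 (edgeR adjusted p = 0.381). The call for the gene alone was lost without D1 WT (adjusted p = 0.0584), without D2 WT (0.116) and without D2 BACHD (0.106).

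Rpl3l, whose levels are given above, was called lower in D2 cells at -1.08 ± 0.25 (edgeR adjusted p = 0.0194) and had no near-identical copy. It rests on 45 counts in D2 BACHD and 35 in D2 WT, against 82 in D1 BACHD and 84 in D1 WT. DESeq2's Wald test gave an adjusted p of 0.311, and the call was lost without D1 WT (0.0725), D1 BACHD (0.0699), D2 WT (0.194) or D2 BACHD (0.0749). It lies on chromosome 17 at 24727820 to 24736143, on the plus strand beyond Rps2 (24718116 to 24721929).

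**Figure D4:**
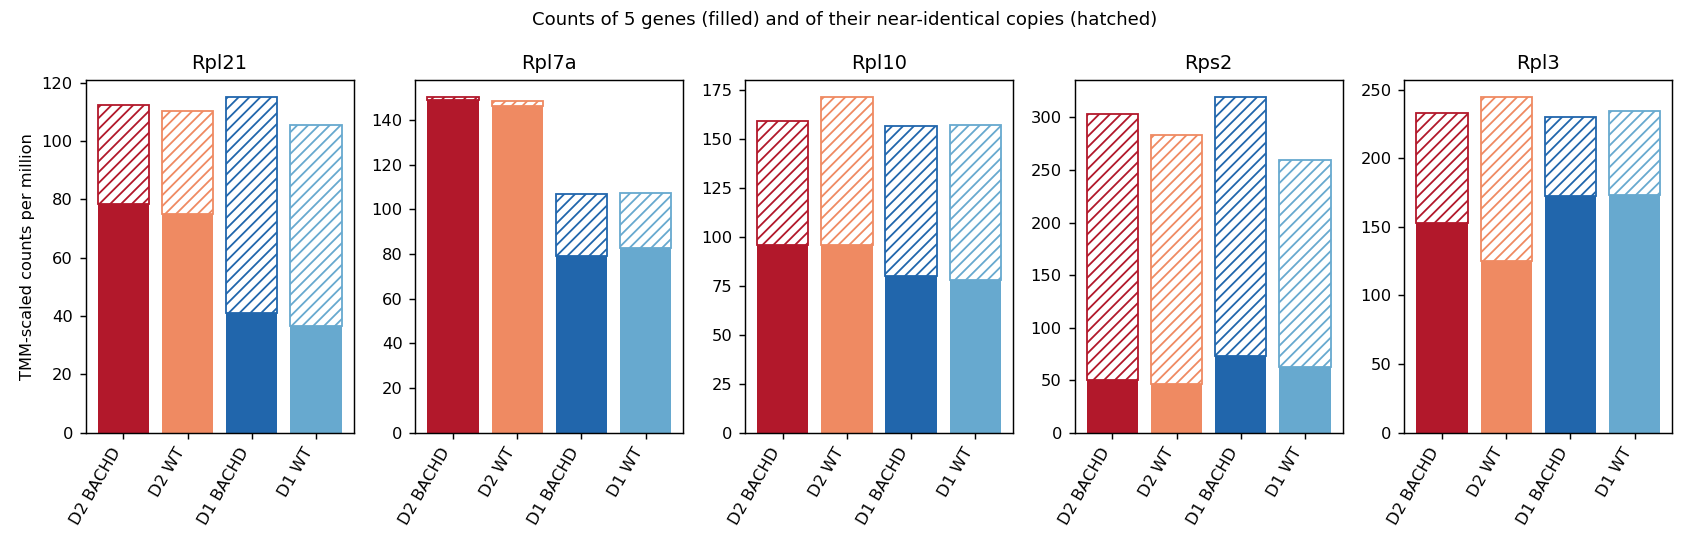
TMM-scaled CPM of Rpl21, Rpl7a, Rpl10, Rps2 and Rpl3 (filled) with the CPM of their near-identical copies stacked on top (hatched), 1 bar for each library. For Rpl21, Rpl10, Rps2 and Rpl3 the filled parts differ between D2 and D1 libraries more than the whole bars do, and for Rpl7a the whole bars still differ, at 150.6 and 148.8 CPM in D2 libraries against 106.9 and 107.2 CPM in D1 libraries.

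With every gene summed with its copies, 2 of 77 were called by cell type, Rpl7a higher and Rpl3l lower in D2 cells, where 16.9% of all genes tested in that fit were called. Summing was chosen after the data had been seen. By the rule of size, 5 genes differed between D2 WT and D1 WT (Rpl21 and Rpl7a higher, Rpl3l, Rpl3 and Rps2 lower in D2), where 19.0% of all genes did. Between D2 BACHD and D1 BACHD 4 genes passed (Rpl21 and Rpl7a higher, Rpl3l and Rps2 lower), where 18.8% of all genes did. A smaller share passed among the 7229 tested genes within the 5th to 95th percentile of the 77 genes' mean CPM. Of those, 333 passed as higher and 413 as lower in D2 WT against D1 WT. In D2 BACHD against D1 BACHD 294 of them passed as higher and 436 as lower. With copies summed only Rpl7a and Rpl3l of the 77 genes passed in either genotype. The other extremes were small, with Rpl35a at 0.17 and Rps3 at 0.16 between D2 WT and D1 WT and Rps27l and Rpl36 at -0.19 and -0.17. Between D2 BACHD and D1 BACHD, Rpl30 stood at 0.28 and Rpl31 at 0.17, and Rpl37 and Rpl34 at -0.19 and -0.17. With copies summed, Rpl30 was at 0.03, Rpl31 at 0.07 and Rpl34 at -0.05 in that pair.

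**Figure D5:**
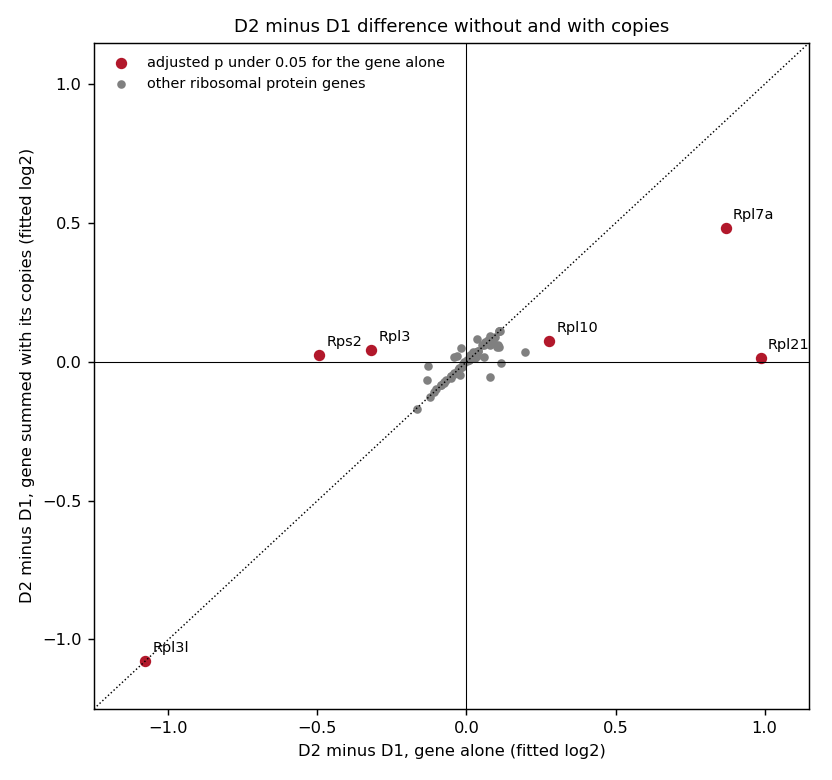
Fitted D2 minus D1 log2 difference of the 77 ribosomal protein genes, for the gene alone (horizontal axis) and summed with its near-identical copies (vertical axis), with the dotted line where both are equal and genes called alone in red. Rpl21, Rpl10, Rps2 and Rpl3 move to near 0 on the vertical axis, at 0.01, 0.07, 0.02 and 0.04, while Rpl7a stays at 0.48 and Rpl3l at -1.08.

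Of the related lists, a few genes differed between D2 and D1 cells, read against the 17.0% of all genes tested that were called by cell type. Among 18 regulators of TOP translation 2 were higher in D2 cells, the kinase gene Rps6kb2 (0.24, edgeR adjusted p = 0.0159) and Tsc2 (0.19, adjusted p = 0.0283), and 2 were lower, Rps6ka3 (-0.28, adjusted p = 0.00659) and the mTOR inhibitor Deptor. Deptor had 17.3 CPM in D2 BACHD and 17.8 in D2 WT, against 32.1 CPM in D1 BACHD and 36.03 in D1 WT (-0.95 ± 0.07, edgeR adjusted p = 5.9e-05). Myc, a transcriptional activator of ribosome genes, had 9.54 CPM in D2 BACHD and 7.59 in D2 WT, against 6.398 CPM in D1 BACHD and 5.43 in D1 WT (0.53 ± 0.12, edgeR adjusted p = 0.0187). Eif4a1 (0.30, adjusted p = 0.00714), the TOP mRNA Nap1l1 (0.30, adjusted p = 0.00427) and the biogenesis factor Bccip (0.22, adjusted p = 0.0223) were the calls of their lists, and 0 of 13 elongation and termination factors, 0 of 13 RNA polymerase I genes and 0 of the 7 further ribosomal protein genes were called.

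Short motifs near the starts of the genes, which the rule did not use, were counted beside those of all genes tested. RefSeq promoters on GRCm38.p6 (250 bases before to 50 after the annotated start) matched 57 of the 77 genes. A C followed by 4 pyrimidines exactly at the annotated start was present in 13 of 57 genes (22.8%) and in 2.99% of the 9832 tested genes with an entry. CCGGAAG on either strand, which holds the core letters of ETS factor sites, was in 42.1% of the 57 and 19.9% of those genes. TATAAA on either strand was in 10.5% and 8.25%, and GGGCGG on either strand in 61.4% and 69.1%. A match is a run of letters, not a site.

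The 60 bases around the annotated start are shown for Rpl4, the gene with the largest genotype difference, for Rpl7a, which kept its D2 difference with copies summed, and for 4 genes that carry the pyrimidine run at the start, with the C-led run nearest the start in capitals.
Rpl4: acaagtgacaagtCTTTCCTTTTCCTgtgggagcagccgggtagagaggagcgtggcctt
Rpl7a: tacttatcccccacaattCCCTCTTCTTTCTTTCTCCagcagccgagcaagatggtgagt
Rpl14: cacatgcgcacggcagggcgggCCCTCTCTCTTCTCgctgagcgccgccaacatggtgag
Rpl28: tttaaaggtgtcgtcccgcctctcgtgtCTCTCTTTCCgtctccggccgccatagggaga
Rpl38: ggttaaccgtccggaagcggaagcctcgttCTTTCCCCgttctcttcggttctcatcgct
Rps6: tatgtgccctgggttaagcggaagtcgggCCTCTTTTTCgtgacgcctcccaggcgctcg
They lie on GRCm38.p6 at chr9:64173357-64173416 (Rpl4, plus strand), chr2:26910777-26910836 (Rpl7a, plus strand), chr9:120571487-120571546 (Rpl14, plus strand), chr7:4792935-4792994 (Rpl28, plus strand), chr11:114668550-114668609 (Rpl38, plus strand) and chr4:86857338-86857397 (Rps6, minus strand). The run begins at the annotated start in Rpl38 and 1, 2 and 8 bases before it in Rps6, Rpl28 and Rpl14, so that in these 4 the start falls within it. In Rpl7a a run of 19 bases begins 12 bases before the start and reaches past it, without a C at the start itself. In Rpl4 a run of 13 bases begins 17 bases before the RefSeq start and ends ahead of it. The GENCODE M21 start of Rpl4, at 64173375, falls on a C inside that run. Whether Rpl4 carries the run at its start therefore depends on the annotation used. Rpl14 and Rpl28 had fitted genotype differences of 0.12 ± 0.05 and 0.06 ± 0.05 (edgeR adjusted p = 0.339 and 0.610), Rps6 one of 0.02 ± 0.05 (adjusted p = 0.888), and the value of Rpl38 is given above. Of these 4 genes, Rpl14, Rpl28 and Rpl38 lay above the ribosomal protein median of 0.04 and Rps6 below it. The 13 genes with a run at the start were not compared as a set with the rest.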

How the data were processed

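Total RNA of sorted neurons was sequenced, per the labels' protocols. The submitters' processing notes name CASAVA 1.8.2. How reads were aligned and counted, on which build and annotation and with what use of strand, is not stated in the sources used here. The authors deposited estimated counts and FPKM for each gene and library, and 19.4% of the deposited estimated counts were not whole. Estimated counts were rounded. Symbols were matched to GENCODE M21 for 32897 of 37620 identifiers, and the rest held 1.52% of counts. Genes with at least 1 CPM in 2 libraries were tested, with TMM scaling, by the quasi-likelihood test of edgeR (version 4.0.16 under R 4.3.3) in an additive fit of genotype and cell type. It has 1 residual degree of freedom and a median of 7.005 prior degrees of freedom, so p-values rest mainly on variance shared across genes, and variation among pools of the same kind could not be estimated. p-values were adjusted by Benjamini-Hochberg over all genes tested and called under 0.05. Within pairs of libraries, counts under 3 were set to 3 and exact conditional binomial 95% intervals were used, which cover counting error only. CPM is scaled by TMM unless shares of counts are given.

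Results were recomputed with scaling by total counts, with size factors and the Wald test of DESeq2 1.42.0, no filter, a filter of 10 CPM, ratios of 1.5 and 2, FPKM with pseudocounts of 0.1 and 1 (limma-trend, limma 3.58.1), TMM without mitochondrially encoded genes, the term tested alone, leaving out each library, and summing with copies, the last chosen after seeing the data. The rule for naming genes took the 5 highest and 5 lowest in each pair of libraries and by mean FPKM, the called genes, the stalk genes, paralogs with their parents, Rps6, Rps27a and up to 4 genes per list. Members and lists were chosen with earlier results of these data known. Any further gene was picked with its values known. Gene positions are those of GENCODE M21 (GRCm38), and the authors may have used another build. Sequences are from GENCODE M21 and RefSeq. Identifiers without a name were not searched for copies. Some genes are not reported here by name.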

Additional observations from a re-analysis of the deposited data

Results flagged for a closer look

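With 1 library per group, 3 ribosomal protein genes had ratios on opposite sides of 1 whose counting intervals both excluded 1, and these differences were not tested. Rpl31, at the rim of the exit tunnel, had a BACHD over WT log2 ratio of 0.11 in D2 cells and -0.12 in D1 cells, a difference of 0.23 (D2 minus D1). Copies held 67.7% of the sum of Rpl31 and its copies, and for that sum the ratios were 0.07 in D2 cells and -0.04 in D1 cells, where the D1 ratio has an interval (-0.08 to 0.01) that includes 0. Rps3, at the mRNA entry channel, had ratios of -0.07 in D2 cells and 0.07 in D1 cells, a difference of -0.14. Rps16 had a D2 over D1 log2 ratio of -0.06 in BACHD and 0.07 in WT, a difference of -0.13 (BACHD minus WT). With copies summed the BACHD ratio of Rps16 was -0.05, with an interval (-0.11 to 0.01) that includes 0. The ratios of Rps3 stayed at -0.07 and 0.07. Every one of the 6 ratios is below the size rule of a log2 ratio of 0.32.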

How the results depend on the processing

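The count of 0 ribosomal protein genes called by genotype was 1 at an adjusted p under 0.1, 1 under total-count scaling, 1 under DESeq2's Wald test (Rpl4 each time) and 2 with no filter (Rpl4 and Rpsa). The 6 calls by cell type were 12 under total-count scaling (3 higher, 9 lower in D2), which moves the median D2 WT over D1 WT ratio of all genes by -0.07, 2 with copies summed, and 2 to 4 when each library was left out. In D1 cells the 1 gene past the size rule was 0 at ratios of 1.5 and 2. Between D2 WT and D1 WT the 5 genes were 3 at a ratio of 1.5, 2 at 2 and 2 with copies summed, and between D2 BACHD and D1 BACHD the 4 genes were 0 at 2 and 2 with copies summed. The median ratio of D2 WT over D1 WT, 0.04, was -0.04 under total-count scaling (-0.035), FPKM plus 0.1 (-0.0417) and FPKM plus 1 (-0.0412). Under total-count scaling the median of all genes tested in that pair was -0.0803. The ribosomal protein median lay 0.0453 above it, against 0.0454 with TMM scaling. With copies summed, fitted signs turned for 12 genes by genotype, among them Rpl5 (-0.0339), Rpl3 (-0.05), Rpl10 (-0.06), Rpl29 (0.08) and Rpl15 (0.02), and for 8 by cell type, among them Rpl3 (0.0413) and Rps2 (0.0232). The cause was not tested. The other 112 values that answer a comparison stayed within 1.5 times or within the spread. Leaving out a library left 1 sample in an arm, so the term was fitted alone and the lone sample was assumed to vary like the others. By genotype such fits mix in the cell type difference: Rps2 (-0.49 by cell type) ran from -0.12 to 0.43, with -0.12 without D1 BACHD and -0.03 without D2 WT, so these values say nothing of its genotype difference. The genotype term alone called 0 of all 13396 genes with all 4 libraries too. No paired analysis was possible because each group has 1 library. Depth limits Rpl3l, Rpl29, Rpl34 and Rps27l.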
